A study of Mus musculus with 35 samples.

Results

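Dbi, Asah2 and Smpdl3a encode an acyl-CoA-binding protein, a ceramidase and a relative of acid sphingomyelinase. These genes were followed through 35 mouse skin wounds, as 3 of the 22830 gene symbols counted in them. They were chosen by their levels at day 14 after wounding, where each was lower in Col5a1CKO than in WT wounds, so the day 14 values are given as a description and with no test. The question was whether the same difference was present at day 19, in a separate experiment with vehicle, after injection of WT fibroblasts and after cilengitide.

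Dbi encodes the acyl-CoA-binding protein, also called diazepam-binding inhibitor, a small cytosolic protein that carries long-chain acyl-CoA esters to the enzymes that use them. Asah2 encodes neutral ceramidase, which splits ceramide into sphingosine and a fatty acid at the cell surface. Smpdl3a encodes a secreted and lysosomal phosphodiesterase that is related to acid sphingomyelinase but acts on nucleotides. In skin, ceramides, fatty acids and cholesterol form the lipid layers of the cornified barrier, and sebaceous glands make their own lipids. Ceramide is made from serine and fatty acyl-CoA, so acyl-CoA supply and ceramide turnover are linked.

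Col5a1CKO mice carried Col1a2CreERT, a tamoxifen-inducible Cre active in Col1a2-expressing fibroblasts, and 2 floxed Col5a1 alleles. WT mice were littermates without Cre that also carried the floxed alleles, and both genotypes received tamoxifen around wounding. Animals of both sexes, young adults on a C57BL/6 background, were used, and RNA came from a punch of the wound centre. One count table held 7 WT and 7 Col5a1CKO wounds at day 14, 3 Col5a1CKO wounds at day 14 injected with fibroblasts from WT skin, and 3 WT and 3 Col5a1CKO wounds at day 19. Another table held 4 WT and 4 Col5a1CKO wounds with vehicle and 4 Col5a1CKO wounds with cilengitide, an inhibitor of alpha v beta 3 integrin, all at day 14. One label field assigns the WT fibroblasts to the day 19 Col5a1CKO wounds, whereas the sample titles assign them to 3 wounds of day 14, and the titles were followed. By the study's methods, mice that received no fibroblasts were given phosphate-buffered saline (PBS), which also served as the vehicle of cilengitide, whereas the labels of the first table name no vehicle. The wound was the unit of replication, and the labels do not say more about how wounds relate to animals.

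Library totals ran from 15043531 to 35700325 counts in the first table, and from 51211600 to 68266760 counts in the second one. The first table fell into a lower and an upper set of libraries by the levels of GC-rich against GC-poor genes, which left 1.54 (log2) between the sets. WT wounds a to d and Col5a1CKO wounds a to e of day 14 lay in the lower set, and all other wounds of that table in the upper set. Col5a1 (chromosome 2 of NCBI37/mm9, 27741945 to 27895034, plus strand), the deleted gene, had 345 to 2404 CPM (counts scaled to the size of the library) in WT and 172 to 667 in Col5a1CKO wounds at day 14. Its range was 514 to 5410 against 614 to 1089 CPM at day 19 and 449 to 2627 against 256 to 1321 CPM with vehicle, so the genotypes overlapped in each setting. Its log2 fold changes were -1.43 (SE 0.49), -1.69 (SE 0.87) and -1.17 (SE 0.76), with edgeR adjusted p of 0.0757, 0.272 and 0.232, adjusted over all genes. Within the lower set of day 14 the genotypes did not overlap, at 851 to 2404 CPM in WT and 172 to 667 in Col5a1CKO, and in the upper set they did. The WT wounds with vehicle were unequal in Col5a1, with 2627 and 2541 CPM in wounds 1 and 2 and as little as 449 CPM in the other pair. Their fibroblast marker sums were 55700 and 47601 CPM in wounds 1 and 2, and 14217 and 10007 in wounds 3 and 4. Col5a1CKO wounds with vehicle had sums of 24459 to 116194 CPM. WT wound b of day 19, lowest in Col5a1, had 12312 CPM, a and c 56876 and 116900, and Col5a1CKO wounds 111840 to 152259. In the upper set of day 14 the sums were 8583 to 9677 CPM for WT, against 58080 and 31803 for Col5a1CKO f and g. In the lower set these sums overlapped. Col5a1 was not tested relative to these sums, so overlap in CPM cannot decide whether its level per fibroblast differed.

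On mouse build NCBI37/mm9, Dbi lies on chromosome 1 from 122009857 to 122017655 on the minus strand, Asah2 on chromosome 19 from 32059144 to 32135959 on the minus strand, and Smpdl3a on chromosome 10 from 57514141 to 57531636 on the plus strand. The 250 bases before the RefSeq start of Asah2 on build GRCm38.p6 (chr19:32103141-32103390, minus strand) are shown because Asah2 had the widest difference of the 3 genes with vehicle. They are written 5′ to 3′, with a motif match in capitals.
Asah2: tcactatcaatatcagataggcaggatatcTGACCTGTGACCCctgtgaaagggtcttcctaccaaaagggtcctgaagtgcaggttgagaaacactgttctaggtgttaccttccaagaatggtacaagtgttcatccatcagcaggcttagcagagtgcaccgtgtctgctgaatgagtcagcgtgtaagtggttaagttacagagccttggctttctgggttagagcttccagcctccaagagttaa
The searched motifs, chosen after the expression values were known, were the CCAAT box, the GC box (GGGCGG), the E box (CACGTG) and the direct repeats of nuclear receptor half-sites named DR1 and DR4, each on both strands. The capitals in the Asah2 window, 220 to 208 bases before the start, match DR1, which 0.09% of 32851 promoter windows of the same length held. A match of letters shows neither binding nor control of the gene.

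At day 14, all 3 genes were lower in each Col5a1CKO wound than in any WT wound, which is how they were chosen. Dbi had 271 to 543 CPM with a median of 479 in the 7 WT wounds, and 92.3 to 191 with a median of 107 in the 7 Col5a1CKO wounds. Asah2 had 103 to 224 CPM with a median of 172 in WT, and 17.0 to 73.6 with a median of 24.2 in Col5a1CKO wounds. Smpdl3a had 280 to 707 CPM with a median of 462 in WT, and 74.1 to 182 with a median of 115 in Col5a1CKO wounds. The log2 fold changes were -1.78 (SE 0.23) for Dbi, -2.42 (SE 0.34) for Asah2 and -1.83 (SE 0.26) for Smpdl3a. Over all genes tested in that comparison, 2.71% were called lower and 5.57% higher in Col5a1CKO, where called means an adjusted p under 0.05 with at least a 2-fold change. Nothing is read from these shares, because the same contrast picked the genes.

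Scaled to transcript length, Dbi was the most abundant of the 3. In WT wounds at day 14 the medians were 816 RPKM (reads per kilobase, scaled to library size) for Dbi, 258 for Smpdl3a and 35.7 for Asah2. In Col5a1CKO wounds at day 14 they were 182, 64.3 and 5.02 RPKM, in the same order. The WT levels of Dbi also parted by library set, with 479 to 543 CPM in the lower and 271 to 343 in the upper set. Asah2 and Smpdl3a overlapped between the sets in WT wounds. Within the lower set the day 14 log2 fold changes of Dbi, Asah2 and Smpdl3a were -2.06, -2.70 and -1.95, and within the upper set -1.25, -1.84 and -1.54. The part of the library set in the level of Dbi was not tested.

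**Figure D1:**
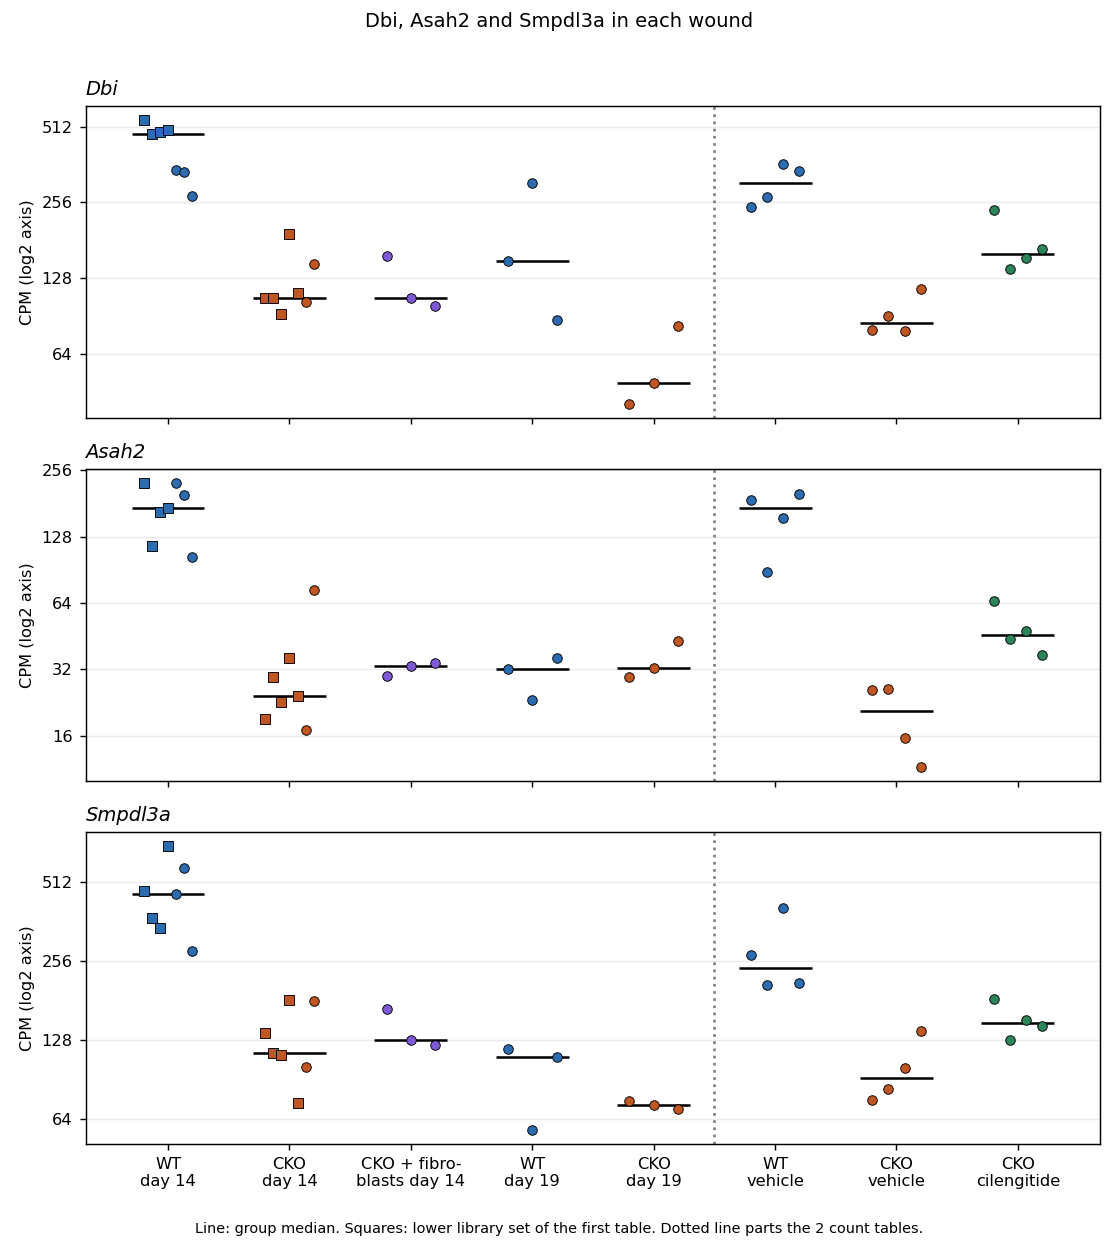
CPM of Dbi, Asah2 and Smpdl3a (log2 axes) in each of 35 wounds by group, with a line at the group median and squares for the lower library set. At day 14 and with vehicle the WT points lie above all Col5a1CKO points of the same experiment, whereas at day 19 WT and Col5a1CKO overlap for Asah2 and Smpdl3a.

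At day 19 none of the 3 genes passed the test, and the genotypes overlapped for Asah2 and Smpdl3a. Asah2 had 32.1, 23.1 and 36.0 CPM in the 3 WT wounds and 29.6, 32.4 and 43.2 in the 3 Col5a1CKO wounds. The groups overlapped, and the log2 fold change was 0.26 (SE 0.26, 95% interval -0.37 to 0.88, adjusted p = 0.539 from the edgeR quasi-likelihood fit, adjusted over all genes). Smpdl3a had 119, 58.5 and 111 CPM in WT and 75.4, 72.6 and 70.3 in Col5a1CKO wounds. One WT wound lay below all Col5a1CKO wounds, and the log2 fold change was -0.35 (SE 0.31, interval -1.12 to 0.42, edgeR adjusted p = 0.498). Without that wound, WT wound b, Smpdl3a was at -0.64 (SE 0.11, interval -0.93 to -0.34, edgeR unadjusted p = 0.00245, adjusted p = 0.143) and Asah2 at 0.06. The summed level of fibroblast markers was 12312 CPM in WT wound b, against 56876 and 116900 in WT wounds a and c, and its part was not tested.

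Dbi had 150, 305 and 87.1 CPM in WT and 40.5, 49.0 and 82.8 in Col5a1CKO wounds at day 19. All 3 Col5a1CKO wounds were below all 3 WT wounds, by a log2 fold change of -1.56 (SE 0.49, interval -2.75 to -0.37). The share of all genes that parted the groups in this way was not counted. The unadjusted p was 0.0187 and the adjusted p = 0.153 by edgeR, so the gene did not pass. Without WT wound b, the one at 305 CPM, the log2 fold change was -1.02. DESeq2 gave an adjusted p of 0.0270 with a log2 fold change of -1.57.

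Few genes were called at day 19 by edgeR: 3 higher and 0 lower of 15135, or 0.0198% and 0.0%. Before adjustment 1786 genes had a p under 0.05 in the higher and 1866 in the lower direction, and DESeq2 called 684 higher and 713 lower. Without WT wound c edgeR called 412 higher and 600 lower, whereas without any other single wound it called 0 in either direction, with 917 to 1778 genes a direction at a p under 0.05 before adjustment. Dbi was at -1.90 (edgeR adjusted p = 0.0624) without WT wound c. The count of calls at day 19 thus depended on 1 wound and on the tool. In counts simulated for these day 19 groups, the edgeR fit recovered 35.7% of the tested genes that had been changed 4-fold.

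The levels of WT wounds at day 19 were below those of day 14 WT wounds for Asah2 and Smpdl3a, without overlap. The log2 fold changes from day 14 to day 19 in WT were -2.44 (SE 0.36) for Asah2, -2.21 (SE 0.41) for Smpdl3a and -1.24 (SE 0.41) for Dbi. In Col5a1CKO wounds they were 0.13 (SE 0.43), -0.83 (SE 0.28) and -1.10 (SE 0.30), in the same order. These are values with no test, since the day 14 wounds chose the genes as high in WT and low in Col5a1CKO, and whether the genotype difference itself changed with time was not tested. The day 19 wounds all lay in the upper library set, within which the WT values were -2.38 for Asah2, -2.05 for Smpdl3a and -0.72 for Dbi. In Col5a1CKO wounds, where 5 of the 7 day 14 wounds lay in the lower set, the values within the upper set were -0.30, -0.90 and -1.06, so that of Asah2 changed sign.

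Col5a1CKO wounds injected with WT fibroblasts had levels within the range of Col5a1CKO wounds of day 14 that received none. Dbi had 158, 107 and 99.3 CPM in the 3 injected wounds, Asah2 had 29.9, 33.0 and 34.1 CPM, and Smpdl3a had 168, 128 and 123 CPM. All 9 values lay inside the ranges of the 7 Col5a1CKO wounds without fibroblasts given above, and below all WT wounds. The log2 fold changes against the wounds without fibroblasts were -0.02 (SE 0.26, interval -0.59 to 0.56) for Dbi, 0.02 (SE 0.42, interval -0.89 to 0.94) for Asah2 and 0.12 (SE 0.28, interval -0.50 to 0.74) for Smpdl3a. Against WT they were -1.67 (SE 0.32), -2.27 (SE 0.32) and -1.58 (SE 0.33). All 3 injected wounds lay in the upper library set, which held 2 of the 7 wounds without fibroblasts. Within that set the log2 fold changes after fibroblasts were 0.03 (interval -0.71 to 0.77) for Dbi, -0.41 (-1.92 to 1.10) for Asah2 and 0.05 (-0.74 to 0.85) for Smpdl3a, and against WT they were -1.24, -2.28 and -1.50. With the library set as a covariate Asah2 was at -0.49 (-1.59 to 0.61) after fibroblasts. Because the wounds without fibroblasts chose the genes, no test is given. Across all genes edgeR called 0.0% higher and 0.0% lower after fibroblasts, with 201 higher and 1800 lower before adjustment at a p under 0.05, and DESeq2 called 9 and 10.

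With vehicle, in wounds that had no part in the choice, all 3 genes fell in Col5a1CKO relative to WT. Dbi had 245, 268, 364 and 342 CPM in the 4 WT wounds and 79.5, 91.0, 78.7 and 116 in the 4 Col5a1CKO wounds. No Col5a1CKO wound reached the lowest WT wound, and the log2 fold change was -1.78 (SE 0.20, interval -2.25 to -1.31, edgeR adjusted p = 0.000839). How many of all genes showed no overlap of the groups with vehicle was not counted.

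Asah2 had 188, 88.4, 155 and 199 CPM in WT and 25.8, 26.1, 15.6 and 11.5 in Col5a1CKO wounds. This was the widest gap of the 3 genes, with a log2 fold change of -3.03 (SE 0.37, interval -3.90 to -2.17, edgeR adjusted p = 0.00106), or 8.19-fold lower. Smpdl3a had 270, 208, 410 and 212 CPM in WT and 75.8, 83.6, 100 and 139 in Col5a1CKO wounds. The groups again did not overlap, and the log2 fold change was -1.51 (SE 0.29, interval -2.17 to -0.85, edgeR adjusted p = 0.00436). Of 15434 genes tested, 13.4% were called lower and 17.5% higher, so a call in this comparison was common. The mean levels of Dbi, 305 ± 57.2 in WT and 91.4 ± 17.5 CPM in Col5a1CKO wounds (SD, n = 4 each), give the scale of the spread. The difference in level between GC-rich and GC-poor genes moved with genotype in these wounds, at -0.03 to 0.13 in WT and -0.55 to -0.20 in Col5a1CKO on the log2 scale, and its part in the result was not tested.

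**Figure D2:**
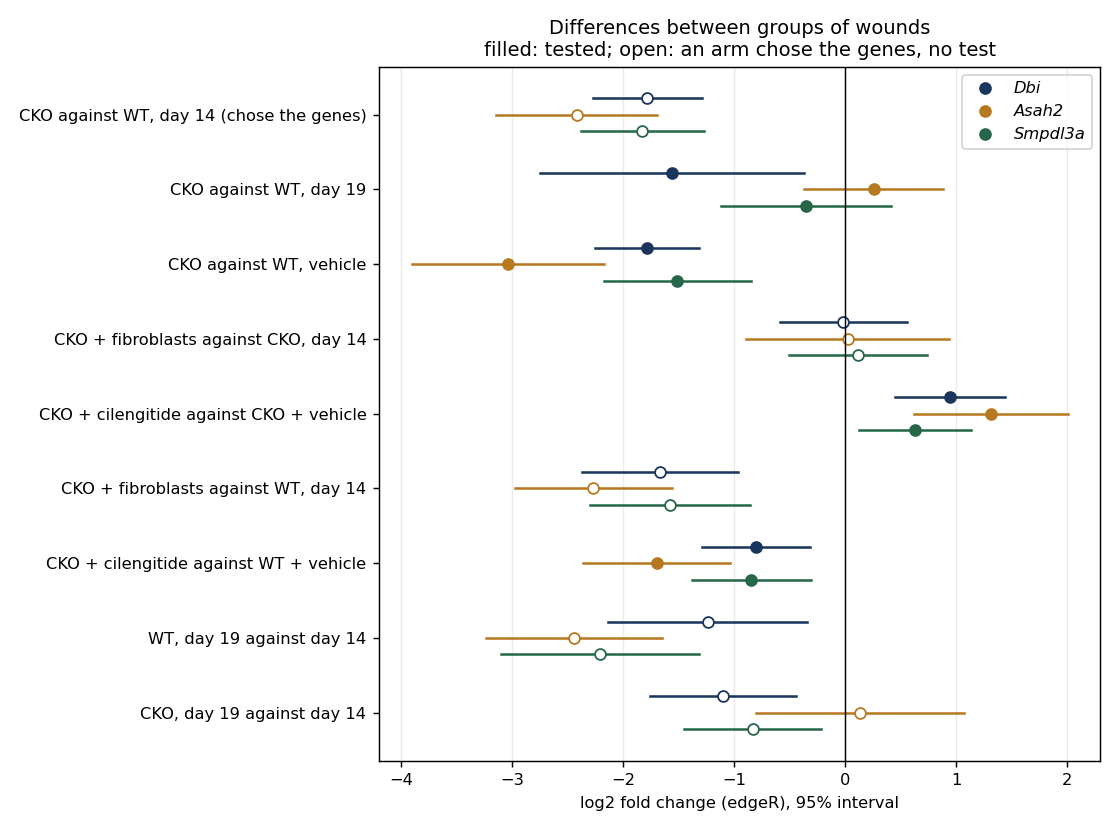
Log2 fold changes (x axis) with 95% intervals for each comparison, with filled points for tested comparisons and open points where an arm had chosen the genes. All 3 intervals lie below 0 for Col5a1CKO against WT with vehicle and above 0 for cilengitide against vehicle, while at day 19 those of Asah2 and Smpdl3a span 0.

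After cilengitide, the levels in Col5a1CKO wounds lay between those of Col5a1CKO wounds with vehicle and WT wounds with vehicle. Asah2 had 65.4, 44.0, 47.7 and 37.2 CPM in the 4 treated wounds, all above the 4 vehicle wounds of the same genotype. It rose by a log2 fold change of 1.31 (SE 0.30, interval 0.62 to 2.00, edgeR adjusted p = 0.0199), or 2.48-fold. Dbi had 238, 139, 153 and 167 CPM, again with no overlap. Its log2 fold change was 0.94 (SE 0.22, interval 0.45 to 1.44, edgeR adjusted p = 0.0199), which at 1.92-fold passed the adjusted p and not the 2-fold rule. The share of all genes without overlap was not counted in this comparison either.

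Smpdl3a had 185, 129, 153 and 146 CPM after cilengitide, and 1 treated wound lay below the highest vehicle wound. Its log2 fold change of 0.63 (SE 0.22, interval 0.12 to 1.13) did not pass by edgeR (adjusted p = 0.0684), and DESeq2 gave an adjusted p of 0.0223. The difference between GC-rich and GC-poor genes was -0.17 to 0.12 in the treated wounds (log2), above the -0.55 to -0.20 of the vehicle wounds, and its part was not tested. In this comparison 6.48% of 15563 genes were called higher and 6.59% lower. Asah2 did not pass without cilengitide wound 1 (edgeR adjusted p = 0.0585), cilengitide wound 3 (0.0518) or vehicle wound 3 (0.0571), nor did Dbi without vehicle wound 3 (0.0578), and Smpdl3a passed without vehicle wound 4 (0.0114).

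Against WT wounds with vehicle, the cilengitide-treated Col5a1CKO wounds remained lower for all 3 genes, with no overlap of the groups. The share of all genes that did not overlap here was not counted. Asah2 was called lower, with a log2 fold change of -1.70 (SE 0.29, edgeR adjusted p = 0.0193), whereas Dbi at -0.80 (SE 0.21, edgeR adjusted p = 0.0352) and Smpdl3a at -0.84 (SE 0.23, edgeR adjusted p = 0.0406) were under 2-fold. Of 15514 genes, 3.43% were called lower and 5.15% higher. None of the 3 genes passed without cilengitide wound 2, 3 or 4, with edgeR adjusted p of 0.0517 to 0.100. Without WT wound 3 or 4 Dbi did not pass (0.0799 and 0.0768), and without WT wound 1, 3 or 4 Smpdl3a did not (0.0632, 0.0627 and 0.0522). This comparison shares its WT wounds with the vehicle comparison and its treated wounds with the cilengitide comparison, so the 3 sets of values are not independent.

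The order of the group medians of Dbi was WT day 14 (479 CPM), WT day 19 (150), fibroblast-injected Col5a1CKO (107) and Col5a1CKO without fibroblasts at day 14 (107), then Col5a1CKO day 19 (49.0). Neighbours in this order overlapped, except that Col5a1CKO day 19 lay below Col5a1CKO day 14. For Asah2 the 4 groups other than WT day 14 had medians of 24.2 to 33.0 CPM and overlapped one another, and the median of WT day 14 was 172 CPM. For Smpdl3a the medians of those 4 groups were 72.6 to 128 CPM, against 462 in WT day 14, and both day 19 groups lay below the injected wounds without overlap. The second table was counted and normalized separately, so its levels are not compared with these.

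Over all wounds the levels of the 3 genes were correlated, which their choice had partly fixed. Pearson's r of log2(CPM + 1) over the 23 wounds of the first table was 0.90 for Asah2 with Smpdl3a, 0.82 for Dbi with Smpdl3a and 0.78 for Asah2 with Dbi. Over the 12 wounds of the second table the values were 0.81, 0.93 and 0.90, in the same order. They pool groups that differ, and the 23 wounds include the day 14 wounds that chose all 3 genes. The values therefore describe the pattern and carry no test. Many other genes followed each gene more closely. By the smaller r of the 2 tables, Smpdl3a ranked 262 among the genes most like Dbi. Among those most like Asah2, Dbi ranked 225 and Smpdl3a 140. Among 11493 genes, those most like Dbi in both tables included Rpl4 and Rpl6, which encode ribosomal proteins, Eif3i, which encodes a translation initiation factor subunit, and Igbp1. The smaller of the 2 correlations was 0.95 to 0.97 for these genes. Most like Asah2 were Rora, which encodes a nuclear receptor, Rdh13, Skint6, Tmem45a and Gramd3, at 0.91 to 0.93. Most like Smpdl3a were Scamp1, Ggh, 6330409N04Rik, Prdx2 and 9130011J15Rik, at 0.90 to 0.92.

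The level of epidermal markers also differed between the groups. The summed level of 10 keratinocyte markers at day 14 ranged over 32864 to 160214 CPM in the WT group, and over 58.5 to 62271 CPM in the Col5a1CKO group. With vehicle it was 63847 to 101011 CPM in WT, 137 to 13059 in Col5a1CKO, and 35584 to 70596 after cilengitide. No marker was at 0 in all wounds of any group. With vehicle 5 of 10 keratinocyte markers and 6 of 9 tested sebaceous gland markers were called lower, 1 sebaceous marker was called higher, and 8 of 10 leukocyte markers were called higher and 1 lower, against 13.4% of all genes lower and 17.5% higher. Of the other lists, 3 of 9 fibroblast and 3 of 7 endothelial markers were higher, 1 of 5 adipocyte markers was lower and 0 of 8 skeletal muscle markers were called by edgeR. After cilengitide 4 of 10 keratinocyte and 6 of 9 sebaceous markers were higher and 5 of 10 leukocyte markers lower, against 6.48% of all genes higher and 6.59% lower. In the first table at day 14 edgeR called 0 of 10 keratinocyte markers, 1 of 9 sebaceous markers lower and 1 higher, and 5 of 9 leukocyte, 3 of 9 fibroblast and 4 of 7 endothelial markers higher, against 2.71% of all genes lower and 5.57% higher. In wounds, fewer cells of a type and less RNA per cell cannot be told apart, and the part of cell makeup in the levels of the 3 genes was not tested.

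Within the lower library set of day 14, Col5a1CKO wounds a, b, c and e had keratinocyte sums of 58.5 to 2304 CPM and Dbi at 92.3 to 112 CPM. Col5a1CKO wound d had a sum of 30178 CPM with Dbi at 191 CPM, and WT wounds a to d had sums of 32864 to 36175 CPM with Dbi at 479 to 543 CPM. Within the upper set, Col5a1CKO wound f had a sum of 348 CPM, with Dbi at 103 and Asah2 at 17.0 CPM. Col5a1CKO wound g had a sum of 62271 CPM, with Dbi at 146 and Asah2 at 73.6 CPM, and WT wounds e to g had sums of 107647 to 160214 CPM with Dbi at 271 to 343 CPM. In both sets the WT wounds held higher sums than the Col5a1CKO wounds of day 14 without fibroblasts. That Dbi was lower in these Col5a1CKO wounds than in these WT wounds was fixed by the choice of genes. The order within a genotype was not, and its link to the sums was not tested. The fibroblast-injected wounds had sums of 13103 to 31462 CPM with Dbi at 99.3 to 158 CPM. The WT wounds of day 19 had sums of 14530 to 26102 CPM with Dbi at 87.1 to 305 CPM. In the Col5a1CKO wounds of day 19 the sums were 6978 to 21573 CPM, with Dbi at 40.5 to 82.8 CPM.

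The sum of 10 sebaceous gland markers at day 14 lay between 2437 and 5074 CPM for WT and between 277 and 2411 for Col5a1CKO, and at day 19 between 752 and 1020 and between 427 and 573. With vehicle the range was 3147 to 3708 CPM for WT, 422 to 2877 for Col5a1CKO and, after cilengitide, 3206 to 4216.

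**Figure D3:**
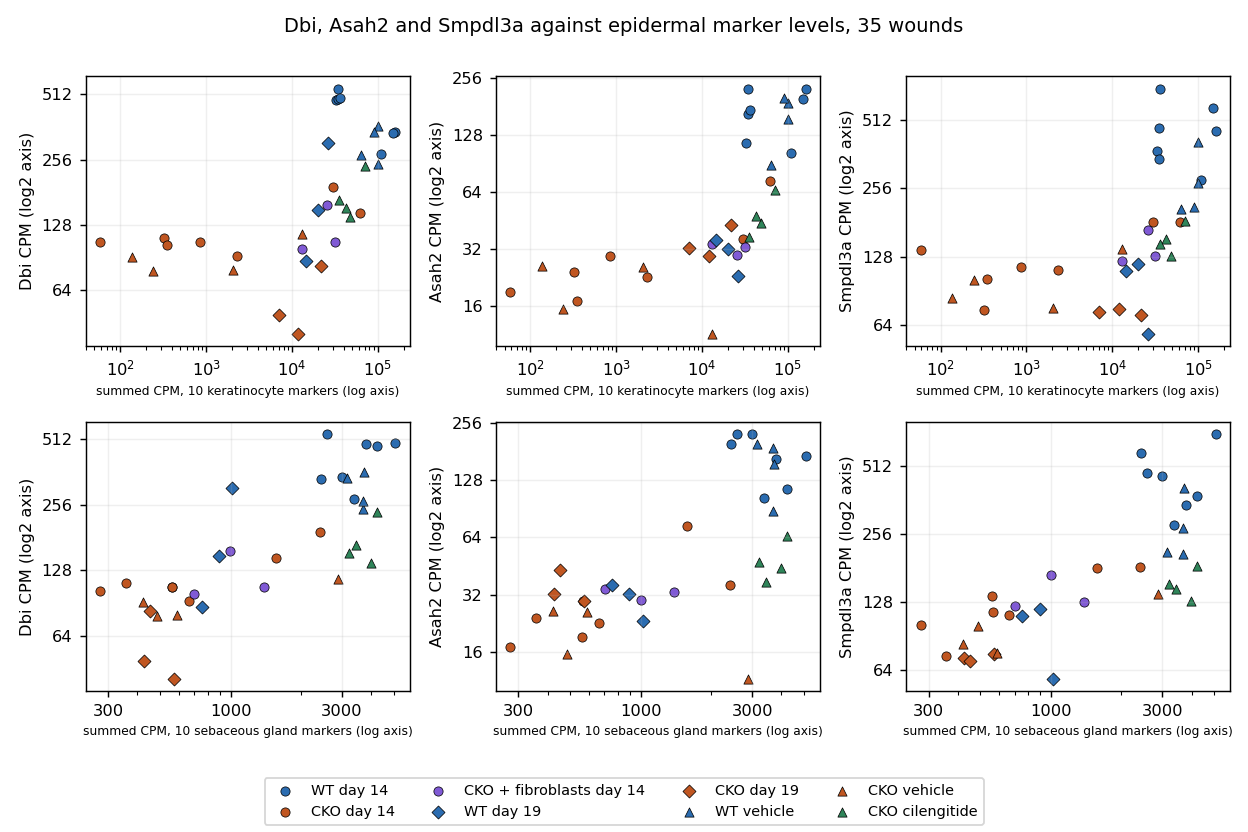
CPM of Dbi, Asah2 and Smpdl3a (log2 y axes) against the summed CPM of keratinocyte markers (upper row) and sebaceous gland markers (lower row, log x axes), 1 point per wound. In the first table, of the day 14 Col5a1CKO wounds without fibroblasts, 5 with keratinocyte sums of 58.5 to 2304 CPM had 92.3 to 112 CPM of Dbi. Wounds d and g, with sums of 30178 and 62271 CPM, had 191 and 146 CPM of Dbi. In the second table the 4 with vehicle at 137 to 13059 CPM had 78.7 to 116. All of these lay below the WT wounds of the same table and day in Dbi.

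Other lipid genes were read from 7 lists, without the 3 genes themselves. With vehicle, 46 of 108 tested list genes fell and 16 rose in Col5a1CKO wounds, against 13.4% and 17.5% of all genes. The sterol synthesis and uptake list fell most often, with 12 of 17 genes called lower, 0 higher and a median log2 fold change of -1.53, where the median of all genes was 0.02. Its smallest adjusted p values by edgeR belonged to Mvd, a mevalonate pathway enzyme (log2 fold change -1.55, SE 0.14, adjusted p = 0.000456), Dhcr7, which makes cholesterol from 7-dehydrocholesterol (-2.94, SE 0.26, 0.000456), and Fdft1, squalene synthase (-1.85, SE 0.18, 0.000586). Of the fatty acid synthesis and elongation list, 11 of 17 were lower and 1 higher. Tecr, which completes each round of elongation, was at -1.93, the elongase Elovl6 at -4.23 and the desaturase Scd1 at -4.08, while the desaturase Fads1 was higher at 1.38.

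Among genes that bind or activate acyl-CoA, the function of Dbi, 8 of 16 fell and 3 rose with vehicle. Of all genes 13.4% were lower and 17.5% higher. Acbd6, another acyl-CoA-binding protein, was at -1.28 (SE 0.14, edgeR adjusted p = 0.000784), the acyl-CoA synthetase Acsl1 at -2.46 and the fatty acid transport protein Slc27a3 at -2.47. Acsl4 and Acsl6, synthetases of the same family as Acsl1, rose by 1.51 and 3.04, as did Tspo, a mitochondrial protein that Dbi is known to bind, by 1.15. The list is thus split, with synthetases in both directions.

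The list for breakdown of ceramide and sphingomyelin holds Asah2 and, as a relative of acid sphingomyelinase, Smpdl3a. Of its other genes, 5 of 14 fell and 4 rose with vehicle, against 13.4% and 17.5% of all genes. The alkaline ceramidase Acer2 was at -3.47 (SE 0.22, edgeR adjusted p = 0.000301), the glucosylceramidase Gba2 at -2.52 and the neutral sphingomyelinase Smpd2 at -1.27. Acid ceramidase, Asah1, rose by 1.29 (SE 0.15, edgeR adjusted p = 0.000905), Galc, which removes galactose from galactosylceramide, by 1.28, and Psap, the precursor of the saposins, by 1.47. The neutral and alkaline ceramidases Asah2 and Acer2 and the acid ceramidase Asah1 thus differed in direction.

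Ceramide synthesis genes were called lower in 4 and higher in 2 of 17 cases with vehicle. Over all genes 13.4% were called lower and 17.5% higher, which are the shares for each list of this paragraph. The serine palmitoyltransferase subunit Sptlc1 was at -1.49, its regulator Ormdl2 at -2.15 and the ceramide synthase Cers4 at -2.31, against 2.35 for Cers2 and 1.09 for Cers6, both also ceramide synthases. Of the genes for use of ceramide and for sphingosine 1-phosphate, 5 of 18 fell, led by the phosphatase Sgpp1 (-2.64), the transporter Spns2 (-2.34) and the receptor S1pr5 (-5.64). The sphingomyelin synthase Sgms2 (5.05) and the receptors S1pr2 (1.18) and S1pr1 (2.44) led the 4 that rose. Of 9 lipid-sensing receptors and targets of liver X receptors, Ppara fell by 3.42. Abca1 (2.83) and Nr1h3, which encodes liver X receptor alpha (2.19), rose. The 1 lower and 2 higher genes of this list are near the shares of all genes.

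After cilengitide, 31 of 107 tested list genes rose and 6 fell in Col5a1CKO wounds, against 6.48% and 6.59% of all genes. Sterol synthesis and uptake had 11 of 17 genes higher and 0 lower, with Lss at 1.67, Mvd at 1.44 and Nsdhl at 1.12, all enzymes of the pathway. Fatty acid synthesis and elongation had 8 of 17 higher, led by Tecr (1.34), Acaca (1.06), the first committed enzyme, and Scd3 (5.30). Of ceramide and sphingomyelin breakdown genes, Acer2 rose by 2.68, Gba2 by 1.58 and Smpd1, acid sphingomyelinase, by 1.37, while Smpd5 was lower (-3.37), of 14 tested. Acyl-CoA genes were called higher in 3 of 16 cases (Slc27a3, Acsl1 and Slc27a4) and lower in 2 (Acsl4 and Acsl6). The remaining lists had 2 of 16, 3 of 18 and 1 of 9 genes higher and 1, 0 and 2 lower.

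Compared with WT wounds with vehicle, the treated wounds had 10 of 108 list genes lower and 3 higher, against 3.43% and 5.15% of all genes. The lists of sterol synthesis (Dhcr7, -1.01) and of fatty acid synthesis (Scd3, -2.03) had 1 gene lower each. The list of ceramide use and sphingosine 1-phosphate had 5 of 18 lower, with Spns2 at -1.05, Abca12 at -1.10 and Sgpp1 at -1.01. Without cilengitide wound 2, 3 or 4 edgeR called 0 list genes in either direction and at most 3 of all genes, with 2493 to 2658 genes a direction at a p under 0.05 before adjustment. Without WT wound 3 or 4 it called 3 list genes lower and 0 higher.

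At day 14 in the first table, 7 of 106 tested list genes were lower and 5 higher in Col5a1CKO wounds, against 2.71% and 5.57% of all genes. All 17 tested sterol genes lay below 0 (median log2 fold change -1.19), and of these Idi1 (-1.59) and Sc5d (-1.19) were called. Ormdl2 (-2.02), Sptlc1 (-1.35) and Sptssa (-1.40) of ceramide synthesis fell, as did Sgpp1 (-1.63) and Elovl6 (-2.36). Cers2 (1.30), Fads1 (1.29), S1pr3 (2.01), S1pr1 (1.76) and Abca1 (1.60) rose. At day 19 edgeR called 0 of 108 list genes in either direction, and DESeq2 called 10 lower and 3 higher. After fibroblasts 0 of 107 list genes were called against Col5a1CKO wounds without them by edgeR, and 2 higher by DESeq2.

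**Figure D4:**
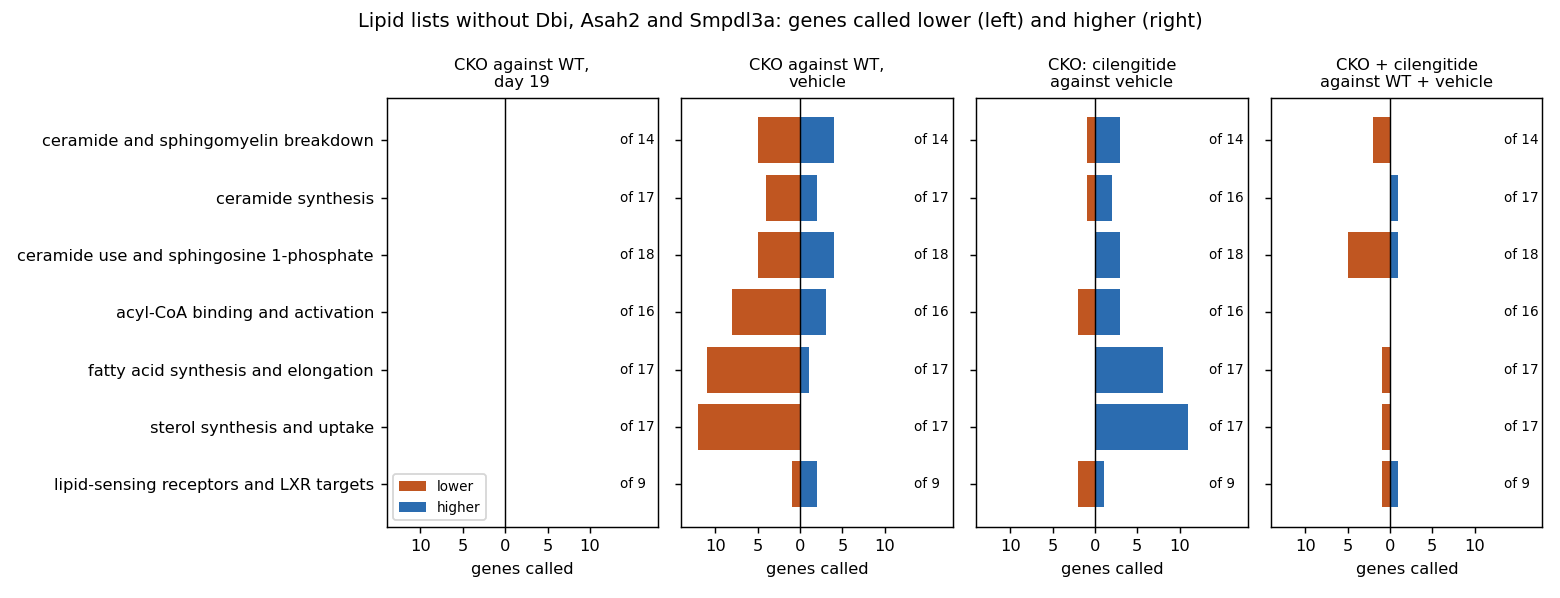
Number of genes of 7 lipid lists called lower (left of 0) and higher (right of 0) in 4 comparisons, with the number tested beside each bar. Sterol synthesis shows 12 of 17 genes lower in Col5a1CKO with vehicle and 11 of 17 higher after cilengitide, and no list gene is called at day 19.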

How the data were processed

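RNA of 35 mouse wounds was sequenced as stranded single-end libraries. The authors aligned reads with Hisat2 to NCBI37/mm9 and deposited raw counts, in the first table per RefSeq transcript over exons by SeqMonk and in the second per gene symbol. Whether the stated steps cover the second table is not given in the sources used here. The row with the largest total was kept per symbol, and rows with no gene name (0.0492% and 5.91e-05% of counts) were left out. The second RefSeq row of Dbi held 97.0% to 99.7% of the counts of the kept one, and the same reads could be counted in both.

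Each pair of groups was fitted with edgeR 4.0.16 in R 4.3.3 (TMM, low counts removed by filterByExpr at 10, quasi-likelihood with robust priors) on the whole table, with Benjamini-Hochberg adjustment over all genes tested. Intervals are at 95%. CPM and RPKM use TMM library sizes over all wounds of a table, RPKM with the deposited lengths. Intervals and p-values set a group difference against the spread between wounds, which the fit estimates with information shared across genes. The fit was tested on simulated data in which 200 genes changed 4-fold. It recovered 35.7% of those tested for day 19, 58.2% for vehicle and 61.3% for cilengitide against vehicle. False calls numbered 10, 12 and 3, in the same order. Alternatives were DESeq2 1.42.0, other size factors, no filter on low counts, all groups in one fit, summed RefSeq rows, a replicate block, the library set, a 3-fold rule and leaving out single wounds. The library sets were parted at the widest gap (1.54, next 0.39) in median level between GC-rich and GC-poor genes. Figures and summaries used Python 3.11.15, pandas 2.3.3 and matplotlib 3.10.9.

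The 3 genes, the lists of lipid genes and markers and the tests were chosen with earlier results of these data known. From each list the called genes with the smallest adjusted p, up to 3 in each direction, are named, and for each of the 3 genes the 5 others most like it among genes averaging 5 CPM or more in both tables. Some items under these rules are not reported here. Likeness is the smaller of the correlations over 23 and over 12 wounds.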

Additional observations from a re-analysis of the deposited data

Results flagged for a closer look

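Each of the 3 genes was examined in the 5 groups of 4 or 7 wounds for a wound standing apart from the rest by Dixon's criterion, 15 sets of values in all, of which chance marks about 1 in 20. One was marked. Asah2 was 73.6 CPM in Col5a1CKO wound g of day 14, whereas the other 6 wounds of that group had 17.0 to 36.1 CPM, a gap of 0.66 of the whole range. The wound still lay below the lowest WT wound, and it had the highest keratinocyte marker sum of its group. With vehicle, Col5a1CKO wound 4 had the highest keratinocyte sum of its group (13059 CPM) and the lowest Asah2 (11.5 CPM). Cilengitide wound 1 was the highest of its group in both (70596 and 65.4 CPM). How Asah2 moved with the sum was not tested.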

How the results depend on the processing

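With vehicle, the 3 genes passed an adjusted p of 0.05 under all 13 alternatives each, with log2 fold changes of -1.88 to -1.69 for Dbi, -3.23 to -2.79 for Asah2 and -1.65 to -1.26 for Smpdl3a. At day 19 Dbi passed with DESeq2 (-1.57), and Asah2 changed sign with library size only (-0.09, adjusted p = 0.785). With single wounds left out at day 19, log2 fold changes were -1.90 to -1.02 for Dbi, 0.06 to 0.42 for Asah2 and -0.64 to -0.16 for Smpdl3a, and none passed. For cilengitide against vehicle Smpdl3a passed with DESeq2 (0.64), library size only (0.78) and no filter on low counts (0.70). Leaving out single wounds gave 0.80 to 1.09 for Dbi, 1.13 to 1.50 for Asah2 and 0.55 to 0.83 for Smpdl3a. For cilengitide-treated wounds against WT it gave -1.01 to -0.70, -1.89 to -1.54 and -0.96 to -0.58, and in one fit of all groups Smpdl3a did not pass (-0.85, adjusted p = 0.0662). At day 14 Dbi moved to -1.25 within the upper library set, and for fibroblasts against WT to -1.22 with the library set as a covariate and -1.24 within the upper set. The fits of day 19 against day 14 within the upper set were added after the data were seen. The cause of these changes was not tested.

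Between genotypes, same-letter correlations of deviations from the group means ran from -0.46 to 0.57 at day 14 and from -0.43 to -0.32 at day 19. The day 14 means mix the library sets, and different letters were not compared. These values therefore cannot decide whether the replicate letters pair the wounds. With the replicate block the day 19 log2 fold changes were -1.48 for Dbi, 0.28 for Asah2 and -0.27 for Smpdl3a, none passing, and Dbi for fibroblasts against WT moved to -2.12. The block moved list genes called lower at day 14 to 16, and called 38 higher and 5 lower after fibroblasts, where the whole table had 1415 higher and 1125 lower. No paired fit was made in the cilengitide experiment, since no number is shared between its groups. Its titles carry running numbers, some of them adjacent across groups, and the labels do not say whether these mark littermates.

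Counts of list genes called moved more than 1.5 times as follows. At day 14, higher and lower counts were 3 and 4 at 3-fold, 9 and 23 with DESeq2 and 9 and 21 in one fit of all groups, with 8 higher with the library set as a covariate and 2 lower within the upper set. At day 19 DESeq2 called 3 higher and 10 lower, and leaving out single wounds gave 0 to 2 higher and 0 to 6 lower, the most without WT wound c. After fibroblasts DESeq2 called 2 higher. With vehicle 8 were higher at 3-fold. After cilengitide 20 were higher and 3 lower at 3-fold, and 2 to 9 lower without single wounds. Against WT they were 1 and 1 at 3-fold, 5 higher with DESeq2, 1 and 3 in one fit, and 0 to 6 higher and 0 to 13 lower without single wounds. Over all genes, DESeq2 called 1245 higher and 850 lower at day 14 (edgeR 800 and 390), and for cilengitide-treated wounds against WT the lowest counts without single wounds were 1 higher and 0 lower (799 and 532 with all wounds).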
